A study of Mus musculus with 10 samples.

Results

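The clustered protocadherins are cell surface adhesion proteins encoded by 3 neighboring gene clusters, α, β and γ, on mouse chromosome 18. The members described here were chosen by symbol in the GENCODE annotation of mm10, as genes on chromosome 18 named Pcdh followed by a, ac, b, ga, gb or gc and a number. The rule found 58 genes among 55413 annotated genes of any type. These were 14 genes of the α cluster, 22 of the β cluster and 22 of the γ cluster, and all 58 lie on the plus strand. GENCODE lists 57 of them as protein-coding and Pcdhgb8 as a polymorphic pseudogene. From the start of Pcdha1 to the end of the γ constant exons the locus covers 912 kb (chr18:36930184-37841873, mm10).

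The cells were F123, an embryonic stem cell line from an F1 hybrid of a castaneus and an S129/SvJae mouse. They grew in medium with LIF, a cytokine that keeps mouse stem cells undifferentiated, on irradiated CF1 mouse embryonic fibroblasts as feeders, and had 1 passage without feeders before harvest. H3K4me3 ChIP-seq, which maps trimethylation of lysine 4 of histone H3, and ATAC-seq, which maps DNA open to the Tn5 transposase, were each done on 2 replicates, with 2000000 fixed cells per H3K4me3 sample and 100000 cells per ATAC-seq sample. Each assay is represented here by 1 peak list for both of its replicates and both parental alleles. The study's PLAC-seq and input samples were not analysed here. There was 1 cell line in 1 state, so the comparisons below are between genes and regions within a list. No value has a spread between replicates, the depth of the libraries is unknown, and in a bulk list a peak in fewer cells cannot be told apart from a weaker peak in all cells.

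Each α and γ protocadherin gene begins with a long variable exon behind a promoter of its own, and this exon is spliced to 3 constant exons that all genes of the cluster share. The β genes have a variable exon and no constant exons. In neurons, the alternate members are switched on in different combinations in different cells, while the C-type members at the end of the α and γ clusters (Pcdhac1, Pcdhac2, Pcdhgc3, Pcdhgc4 and Pcdhgc5) are known to be expressed more uniformly. H3K4me3 is a mark of promoters that are active or held ready for activity, and a peak is no measure of expression. The DNA-binding protein CTCF and the ring-shaped cohesin complex are known to bring protocadherin promoters into contact with distant enhancers.

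The locus was dense in peaks. The H3K4me3 list held 33487 peaks and the ATAC-seq list 179109. Although the locus makes up 1.01% of chromosome 18, it held 107 of the 1015 H3K4me3 peaks of that chromosome (10.5%) and 153 of its 5750 ATAC-seq peaks (2.66%). This is 11.7 H3K4me3 peaks per 100 kb in the locus against 1.12 for the whole chromosome, and 16.8 ATAC-seq peaks per 100 kb against 6.34. The 200 kb before and after the locus had 5.50 and 4.50 H3K4me3 peaks per 100 kb, and 8.00 and 15.5 ATAC-seq peaks. For ATAC-seq the 200 kb after the locus were thus close to it, with 7.30% of bases covered against 6.63% in the locus. H3K4me3 peaks covered 13.1% of the bases of the locus and 1.60% of those of the chromosome. With 1 kb added at both ends of the locus, 53 of the 107 H3K4me3 peaks reached into a window of 1 kb on either side of a member's start, a further 36 lay elsewhere in a variable first exon, 10 were at the start of another gene, 2 were on a constant exon and 6 were elsewhere. For ATAC-seq, 65 of 154 peaks reached into a start window, 51 lay elsewhere in a first exon, 11 were at the start of another gene, 4 were on a constant exon and 23 were elsewhere. Of the 107 H3K4me3 peaks, 85 overlapped an ATAC-seq peak. The same share over the whole H3K4me3 list was not computed.

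Most members carried a peak of both kinds at their start, and the β cluster was the exception. For 46 of 58 members the H3K4me3 list had a peak within 1 kb of the start (79.3%, 95% Wilson interval 67.2 to 87.7), and for 47 the ATAC-seq list did (81.0%, 69.1 to 89.1). Among all 21938 protein-coding genes of chromosomes 1 to 19, X and Y the background was 65.2% for H3K4me3, which lies just below the members' interval, and 71.0% for ATAC-seq, which lies within it. Among the protein-coding genes of chromosome 18 alone the shares were 75.8% and 81.7%, both within the members' intervals. Both peaks were present at 42 members (72.4%, 59.8 to 82.2, background 64.4%), and neither at 7 (12.1%, 5.97 to 22.9, background 28.2%). The intervals cover counting error only. Neighboring members have related sequences and can share a peak, so they are not independent.

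In the α cluster, all 14 members had an H3K4me3 peak within 1 kb of the start (78.5 to 100%) and 13 had an ATAC-seq peak. The member without an ATAC-seq peak there was Pcdha3. In the γ cluster, 22 of 22 members had both, and no γ start was more than 323 bp from an H3K4me3 peak. In the β cluster, 10 of 22 members had an H3K4me3 peak within 1 kb (45.5%, 26.9 to 65.3), namely Pcdhb1, Pcdhb2, Pcdhb3, Pcdhb4, Pcdhb8, Pcdhb11, Pcdhb12, Pcdhb14, Pcdhb20 and Pcdhb22. ATAC-seq peaks were there at 12 of 22 (54.5%, 34.7 to 73.1). The β interval for H3K4me3 does not overlap the interval of the α cluster. Both β intervals include the shares over all protein-coding genes, 65.2% for H3K4me3 and 71.0% for ATAC-seq. The shares on chromosome 18 alone, 75.8% and 81.7%, lie above them. The 7 members with neither peak were all β genes, Pcdhb5, Pcdhb7, Pcdhb9, Pcdhb15, Pcdhb18, Pcdhb19 and Pcdhb21. Another 5 β genes (Pcdhb6, Pcdhb10, Pcdhb13, Pcdhb16 and Pcdhb17) had an ATAC-seq peak alone, and Pcdha3, Pcdhb12, Pcdhb14 and Pcdhb20 had an H3K4me3 peak alone.

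When the peak had to cover the start base itself, a setting chosen after seeing the data, H3K4me3 was found at 39 of 58 members (67.2%, 54.4 to 77.9) against a background of 61.1% of protein-coding genes, and ATAC-seq at 35 of 58 (60.3%, 47.5 to 71.9) against 62.5%. In the β cluster 5 of 22 starts were covered by an H3K4me3 peak and 7 of 22 by an ATAC-seq peak.

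**Figure D1:**
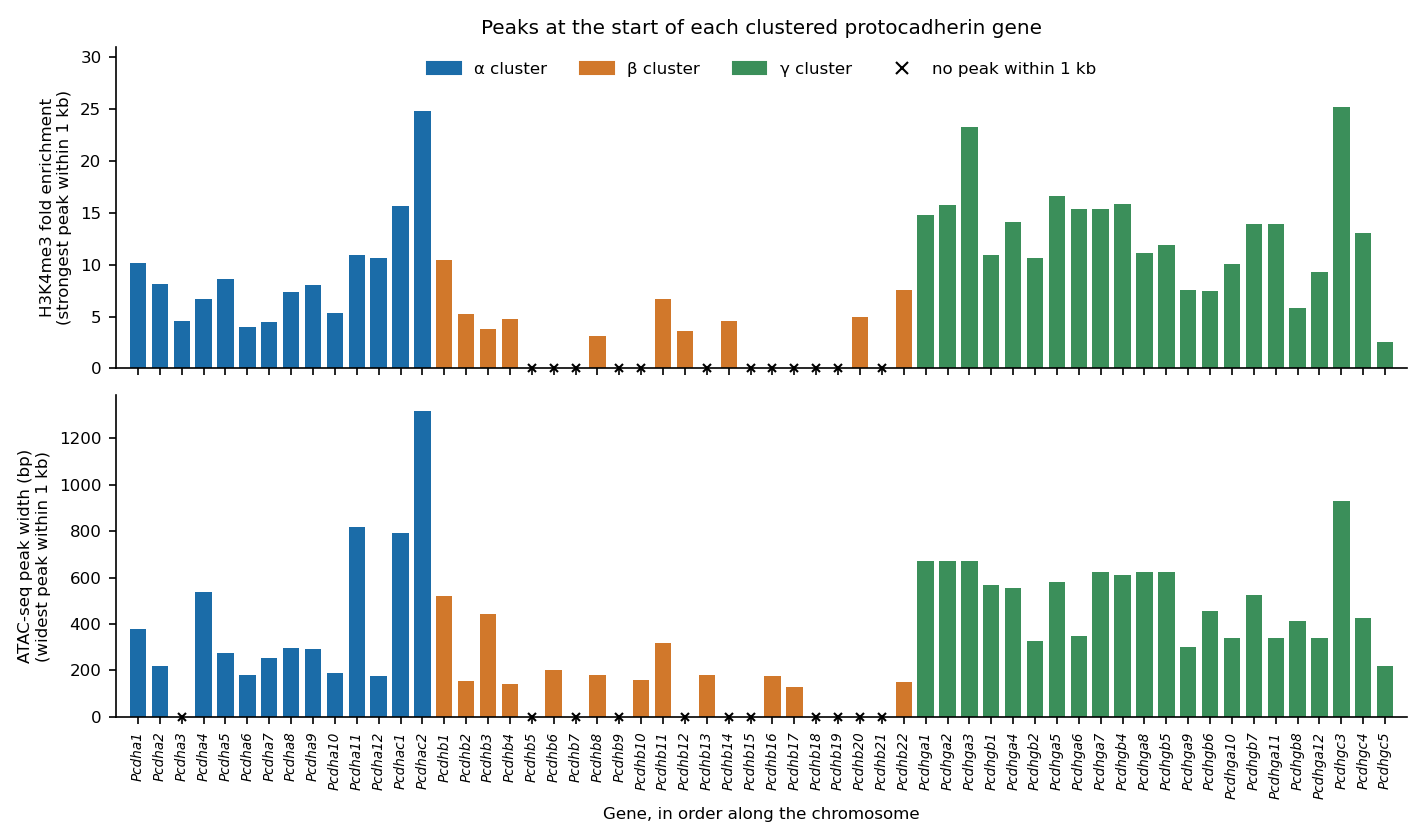
Bars show, for each of the 58 genes in chromosome order, the fold enrichment of the strongest H3K4me3 peak (top) and the width in bp of the widest ATAC-seq peak (bottom) within 1 kb of the gene start, with crosses where the list has no peak there. There is 1 list per assay, so no error bars are drawn; α and γ genes are filled almost throughout, while 12 of 22 β genes have no H3K4me3 bar, and Pcdhgc3 (25.2) and Pcdhac2 (24.8) are the highest.

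The peaks at protocadherin starts were weak for promoters. The strength used here is the fold enrichment that the authors' peak caller gave each H3K4me3 peak over its background, with −log10 of its q value, and where several peaks touch a start window the strongest is meant. The fold was 4.04 to 24.8 in the 14 α members (median 8.09), 3.15 to 10.5 in the 10 β members with a peak (median 4.87) and 2.59 to 25.2 in the 22 γ members (median 13.5). Over all 14295 protein-coding starts with a peak the median was 30.6. The medians of −log10 q were 32.5, 14.3 and 99.6 in the 3 clusters. Ranked among those 14295 starts, the 46 members stood between the 0.175 and the 35.4 percentile, with a median of 8.77, so every one was below the median of the distribution. Ties are common among weak peaks: 22 of the 89 H3K4me3 peaks at members share both fold and q with another.

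The α genes at both ends of the cluster had the stronger peaks. Pcdha1, the first, had a fold of 10.2 in a peak that ran from -459 to 953 bp relative to the start. The lowest were Pcdha6 (4.04), Pcdha7 (4.44) and Pcdha3 (4.58). In between, Pcdha2 had 8.16, Pcdha4 6.68, Pcdha5 8.65, Pcdha8 7.36, Pcdha9 8.01 and Pcdha10 5.35, and the alternate members at the far end, Pcdha11 and Pcdha12, had 10.9 and 10.7. The 12 alternate α members ranged from 4.04 to 10.9 with a median of 7.68. Both C-type α genes lay above all 12. Pcdhac1 had a fold of 15.7 and Pcdhac2 a fold of 24.8, the latter in a peak of 2195 bp with an ATAC-seq peak of 1318 bp, the widest at any member.

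In the β cluster the values were higher at the 2 ends as well. Pcdhb1 had a fold of 10.5 in a peak from -288 to 845 bp relative to its start, with an ATAC-seq peak of 522 bp, and Pcdhb22 a fold of 7.56 in a peak that began 419 bp after its start. Between them, start peaks had folds from 3.15 (Pcdhb8) to 6.73 (Pcdhb11) or were absent. In Pcdhb20, with a fold of 5.01, the one peak that reached into the start window began 924 bp after the start and had its summit at 1911 bp. Pcdhb1 is the single β member whose strongest peak was also its sole peak and covered its start.

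In the γ cluster the A-type genes (Pcdhga) and B-type genes (Pcdhgb) are interspersed along the chromosome. The fold was 7.56 to 23.3 in the 12 A-type genes (median 14.4) and 5.81 to 15.9 in the 7 B-type genes (median 10.9), ranges that overlap widely. The strongest alternate member was Pcdhga3 with 23.3. The first 12 γ genes, Pcdhga1 to Pcdhgb5, all had a fold of at least 10.7. Pcdhga1 had 14.8, Pcdhga2 15.8, Pcdhga4 14.1, Pcdhga5 16.6, Pcdhga6 and Pcdhga7 15.4 each, and Pcdhga8 11.1. Among the B-type genes there, Pcdhgb1 had 10.9, Pcdhgb2 10.7, Pcdhgb4 15.9 and Pcdhgb5 11.9. The lowest alternate members were in the later part, Pcdhgb8 with 5.81, Pcdhgb6 with 7.45 and Pcdhga9 with 7.56, beside Pcdhga10 with 10.1 and Pcdhga12, the last alternate γ gene, with 9.31. Pcdhgb8, the annotated pseudogene, still had both peaks on its start base.

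The 5 C-type genes did not form one level. Pcdhgc3 had the highest fold of all members, 25.2 with a −log10 q of 365, in a peak from -672 to 2685 bp relative to the start, and the widest ATAC-seq peak of the γ cluster, 930 bp. Pcdhgc4 had 13.1, close to the γ median. Pcdhgc5 had the lowest fold of all members with a start peak, 2.59, in a peak of 412 bp, and its stronger peak (fold 6.65) had its summit 2897 bp after the start. The CpG ratio in the start window, the observed number of CG pairs over the number expected from the C and G content, was also highest in Pcdhgc3 (0.82) and was 0.69 in Pcdhac2, 0.57 in Pcdhgc4, 0.54 in Pcdhac1 and 0.25 in Pcdhgc5.

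Within the first exon, nearly every member had a peak. An H3K4me3 peak touched the variable first exon of 57 of 58 members, all but Pcdhb6, and an ATAC-seq peak touched 56, all but Pcdhb6 and Pcdhb9. Over the 21853 protein-coding genes with a first exon assigned, 64.3% had an H3K4me3 peak in it and 66.9% an ATAC-seq peak. These shares are not like for like, because the members' first exons had a median of 2611 bp and those of all protein-coding genes a median of 220 bp. The comparison over a fixed window is given next.

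In the β cluster the strongest peak lay far inside the exon rather than at the start. The strongest H3K4me3 peak of a β gene, over its start window and first exon, had its summit at a median of 2008 bp after the start (21 members, 107 to 2224 bp). Among peaks that touched a fixed window from 1 kb before to 3 kb after the start, the strongest had its summit more than 1 kb after the start in 16 of 21 β genes with a peak (76.2%, 54.9 to 89.4), in 1 of 14 α genes (7.14%, 1.27 to 31.5) and in 3 of 22 γ genes (13.6%, 4.75 to 33.3). The γ genes were Pcdhga12, Pcdhgc5 and Pcdhgb7, the last through a peak that reaches past the window and has its summit 4381 bp after the start, in Pcdhga11. Of the 14638 protein-coding genes with a peak touching the same window the background was 7.91%. Among the other protein-coding genes with a first exon of at least 2000 bp it was 55 of 358 (15.4%, 12.0 to 19.5), below the β interval. The annotated exon of Pcdhb21, of 4705 bp, runs into the start of Pcdhb22, whose start peak lies beyond the window of Pcdhb21.

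The position of these inner peaks was shared from gene to gene. At 1800 to 2050 bp after the start, 17 of 22 β genes were covered by an H3K4me3 peak, and at 2100 to 2150 bp 19 of 22 were covered by an ATAC-seq peak. These positions were picked as those of highest coverage in the same lists, as were the α and γ positions below. The share of all protein-coding genes was not computed for them, nor for peaks that began more than 1 kb after the start. Peaks that began more than 1 kb after the start numbered 20 for H3K4me3, at 18 of 22 β genes, with folds from 2.43 to 10.1 (median 4.99), and 1 of the 20, counted in the exon of Pcdhb21, is the start peak of Pcdhb22. The strongest was in Pcdhb21, which had neither peak at its start, with a fold of 10.1 from 1456 to 2508 bp after it. The next was in Pcdhb7, also without a peak at its start, with a fold of 8.77 from 1514 to 2415 bp. Pcdhb15 had the weakest, with a fold of 2.43 and a −log10 q of 2.36. Of 7 β genes with an H3K4me3 peak at both places, the inner one had the higher fold in 4 and the one at the start in 3. The start and inner folds were 5.25 and 5.44 in Pcdhb2, 3.76 and 3.87 in Pcdhb3, 4.73 and 4.87 in Pcdhb4 and 3.58 and 5.11 in Pcdhb12. They were 6.73 and 3.65 in Pcdhb11, 4.55 and 3.53 in Pcdhb14 and 7.56 and 5.17 in Pcdhb22. All 7 genes with neither peak at the start therefore had an H3K4me3 peak further in, and 6 of them, all but Pcdhb9, also had an ATAC-seq peak there.

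**Figure D2:**
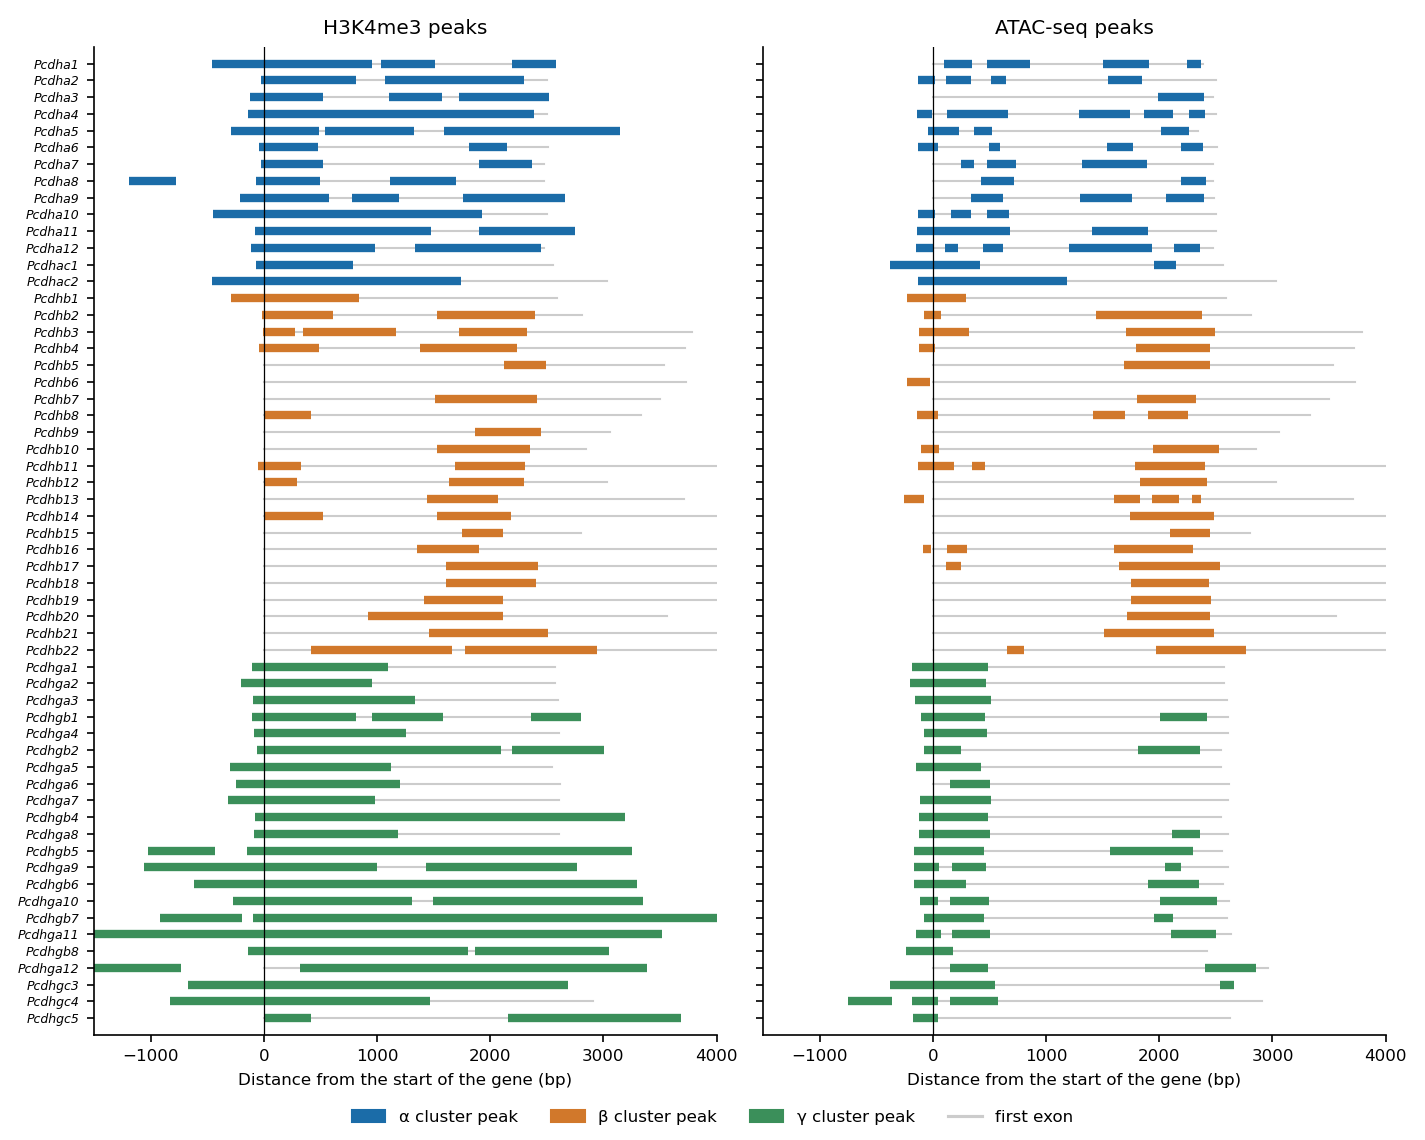
Each row is 1 of the 58 genes in chromosome order, with the distance from its start in bp on the horizontal axis, the first exon as a gray line and each peak as a colored bar for H3K4me3 (left) and ATAC-seq (right), cut at the edges of the plot. The β rows show a column of peaks near 2000 bp after the start in both panels and start peaks in only part of the rows, whereas every α and γ row has an H3K4me3 bar on the start or within 323 bp of it.

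The α genes had inner peaks too, as a second site beside the start. H3K4me3 peaks that began more than 1 kb after the start were found in 10 of 14 α genes (12 peaks, folds 2.78 to 5.44, median 3.65) and ATAC-seq peaks in 12 of 14. All 14 were covered by an H3K4me3 peak at 0 to 450 bp. In the γ cluster all 22 were covered at 350 to 400 bp, 6 of 22 had a separate H3K4me3 peak beginning more than 1 kb after the start and 11 of 22 such an ATAC-seq peak. Several γ peaks were long enough to cover a whole exon or more. The median share of the first exon covered by H3K4me3 peaks was 74.1% in γ, 69.7% in α and 22.4% in β genes. These shares are not like for like, because the annotated first exons had a median of 2604 bp in γ, 2490 bp in α and 3714 bp in β genes. A single peak of 7743 bp (fold 13.9) began just before the start of Pcdhgb7 and ran through Pcdhga11, so the value of these 2 genes is that of 1 peak with its summit 250 bp after the start of Pcdhga11.

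The ATAC-seq peaks at the start differed in shape between the clusters. The widest peak in the start window had a median width of 541.5 bp in γ genes (220 to 930), 292 bp in α genes (176 to 1318, n = 13) and 177 bp in β genes (128 to 522, n = 12). The γ peak ran at the median from -117 to 481 bp relative to the start. More than 1 ATAC-seq peak lay in the start window of 8 of 14 α genes, 2 of 22 β genes and 4 of 22 γ genes. The share over all protein-coding genes was not computed for this count. At 500 to 550 bp after the start, 11 of 14 α genes were covered by an ATAC-seq peak. The ATAC-seq list has positions only, so a width is the one measure of size it gives.

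**Figure D3:**
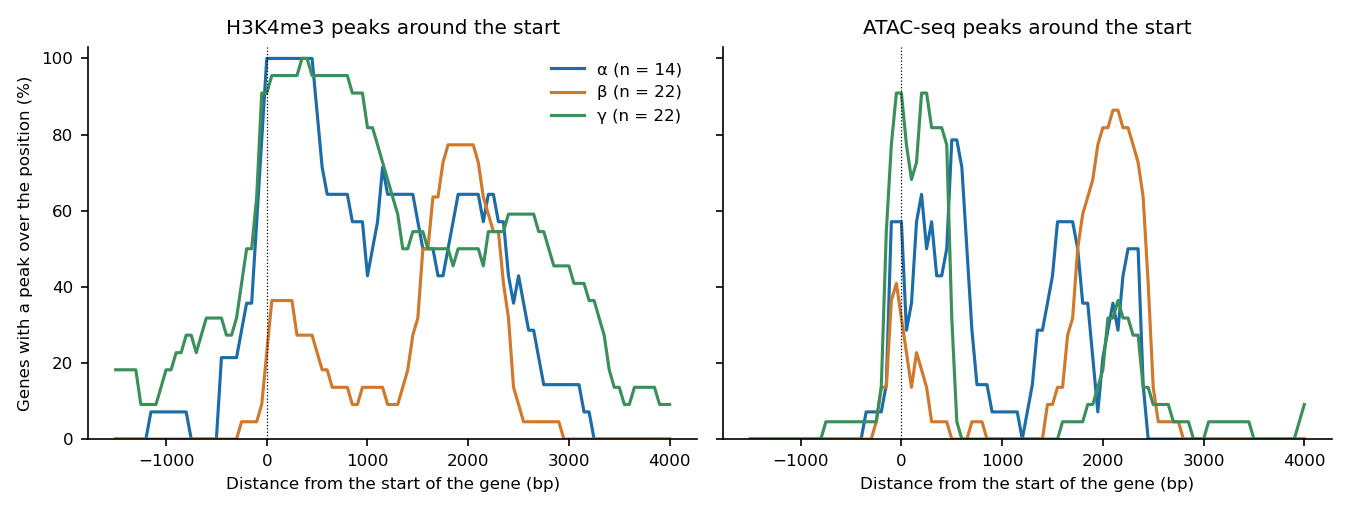
Lines show the percentage of the genes of each cluster (14 α, 22 β, 22 γ) that have an H3K4me3 peak (left) or an ATAC-seq peak (right) over each position, against the distance from the gene start in bp in steps of 50 bp. For H3K4me3 the α and γ lines reach 100% just after the start and the β line peaks where 17 of 22 genes are covered, at 1800 to 2050 bp; for ATAC-seq the β line peaks at 2100 to 2150 bp (19 of 22).

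Base composition differed between the clusters and along the exon. The median CpG ratio of the start windows was 0.64 in α, 0.51 in γ and 0.33 in β genes, and 0.47 over all protein-coding genes. Along the exon, in bins of 500 bp, the median ratio in β genes was 0.34 in the first bin after the start. It was 0.55 from 1500 to 1999 bp and 0.37 from 2000 to 2499 bp, and the inner peaks reach into both of these bins. In α genes the same 3 bins had 0.72, 0.74 and 0.54, and in γ genes 0.64, 0.49 and 0.41. The 7 members with neither peak at the start had ratios of 0.14 to 0.36 (median 0.32), and the 42 with both had 0.25 to 0.82 (median 0.53), so the 2 sets overlap. Across the 46 members with a start peak, Spearman's rho between the CpG ratio and the fold was 0.41, and within the clusters it was 0.25 (α, n = 14), 0.49 (β, n = 10) and 0.28 (γ, n = 22). For the GC content of the start window, rho was 0.54 over all members and 0.49, -0.22 and 0.13 in the α, β and γ clusters. The α value includes Pcdhac1 and Pcdhac2, which had the highest α folds and GC contents of 51.4% and 54.8%. The 12 alternate α members had 39.2 to 43.7%, and rho was not computed for them alone. These points share 1 library and related sequences, so rho is given as a description.

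Related sequences also limit where reads can be placed. The share of 31-base words in the start window that occur more than once in the genome had a median of 11.3% in α, 0.482% in β and 2.61% in γ genes. It was 6.60% at the median in members with neither peak and 7.86% in those with both, but all 7 of the former are β genes, and the 7 β genes with both peaks had a median of 0%, with a highest value of 19.8%. The highest shares, 26.8% and 22.9%, were in Pcdha7 and Pcdha6. Both genes had both peaks, with the lowest folds of the α cluster, 4.44 and 4.04. Pcdha8, with a share of 21.8%, had a fold of 7.36. Across the 46 members with a start peak, Spearman's rho between this share and the fold was -0.31, and it was -0.66 in the α cluster (n = 14), -0.34 in β (n = 10) and -0.22 in γ (n = 22), again as a description. In α, Pcdhac1 and Pcdhac2 had a share of 0% and the highest folds. The 12 alternate α members had 7.66 to 26.8%, and rho was not computed for them alone.

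The consensus of CTCF occurred unchanged in α genes alone. An exact match on either strand was found in the start windows of 6 of 58 members, Pcdha1, Pcdha4, Pcdha6, Pcdha7, Pcdha8 and Pcdha12, and in those of 0.903% of all protein-coding genes. With 1 mismatch allowed it was 10 members, adding Pcdha5, Pcdha9, Pcdha10 and Pcdhgb7, against 8.66% of all protein-coding genes. All 9 α matches were on the strand of the gene, between 456 and 594 bp after the start, and each overlapped an ATAC-seq peak, while 3 of the 9 (Pcdha6, Pcdha7 and Pcdha8) lay outside any H3K4me3 peak. The match in Pcdhgb7 was on the opposite strand with no ATAC-seq peak over it. No β start window (0 of 22) held a match, which says only that these letters are not in it. No CTCF binding data were analysed here.

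Between the clusters peaks were fewer per kb than within them, and most H3K4me3 peaks there were at the starts of other genes. Per 100 kb, the α to β interval touched 2.59 H3K4me3 and 5.18 ATAC-seq peaks and the β to γ interval 5.10 and 8.74, against 1.12 and 6.34 for the whole chromosome. The interval from the α constant exons to Pcdhb1 spans 77.3 kb (chr18:37187662-37264937) and touched 2 H3K4me3 and 4 ATAC-seq peaks. Of these, 1 H3K4me3 peak was the edge of the Pcdhb1 promoter peak. The other, at chr18:37217068-37218314, was 1247 bp wide with a fold of 13.1 and a −log10 q of 96.3, overlapped 2 ATAC-seq peaks of 189 and 607 bp, and had no annotated gene start within 1 kb. Its fold was above that of 57.5% of the H3K4me3 list and above the fold at the start of every α alternate and every β member.

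The interval from Pcdhb22 to Pcdhga1 spans 137 kb (chr18:37524480-37661792) and touched 7 H3K4me3 and 12 ATAC-seq peaks. Of the H3K4me3 peaks, 3 were at the noncoding gene 4930517L18Rik (folds 3.30, 7.31 and 3.44), 1 at Slc25a2, a mitochondrial carrier (4.87), 1 at Taf7, a subunit of the general transcription factor TFIID (44.1), 1 at 3222401L13Rik (17.1), and 1 was the edge of the peak at Pcdhga1. No H3K4me3 peak in this interval was away from an annotated gene start. Of the ATAC-seq peaks, 5 lay away from gene starts and from H3K4me3 peaks. The widest of them was 1112 bp (chr18:37630218-37631329).

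The longer gaps inside the clusters held no midpoint of an H3K4me3 peak. Between Pcdha12 and Pcdhac1 (67.4 kb) no H3K4me3 peak and 2 ATAC-seq peaks had their midpoint, and between Pcdhac1 and Pcdhac2 (50.9 kb) there was no midpoint of either kind. Between Pcdhga12 and Pcdhgc3 (37.8 kb) 3 ATAC-seq peaks had their midpoint. The 31.5 kb with the α constant exons held 2 H3K4me3 peaks, at the starts of the genes Gm38097 (fold 3.38) and Gm10544 (6.30), and 3 ATAC-seq peaks, none of them on a constant exon. At the γ constant exons, a peak of 2760 bp (fold 7.87), which is also at the start of the gene Gm38182, covered the first of them and a peak of 2028 bp (fold 10.3) the end of the last, and the 16.9 kb touched 8 ATAC-seq peaks, or 47.5 per 100 kb. By share of bases under H3K4me3 peaks, the γ variable exons with the spaces between them stood at 34.5%, the α at 13.1%, the β cluster at 8.23%, the α to β interval at 1.99% and the β to γ interval at 4.56%.

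**Figure D4:**
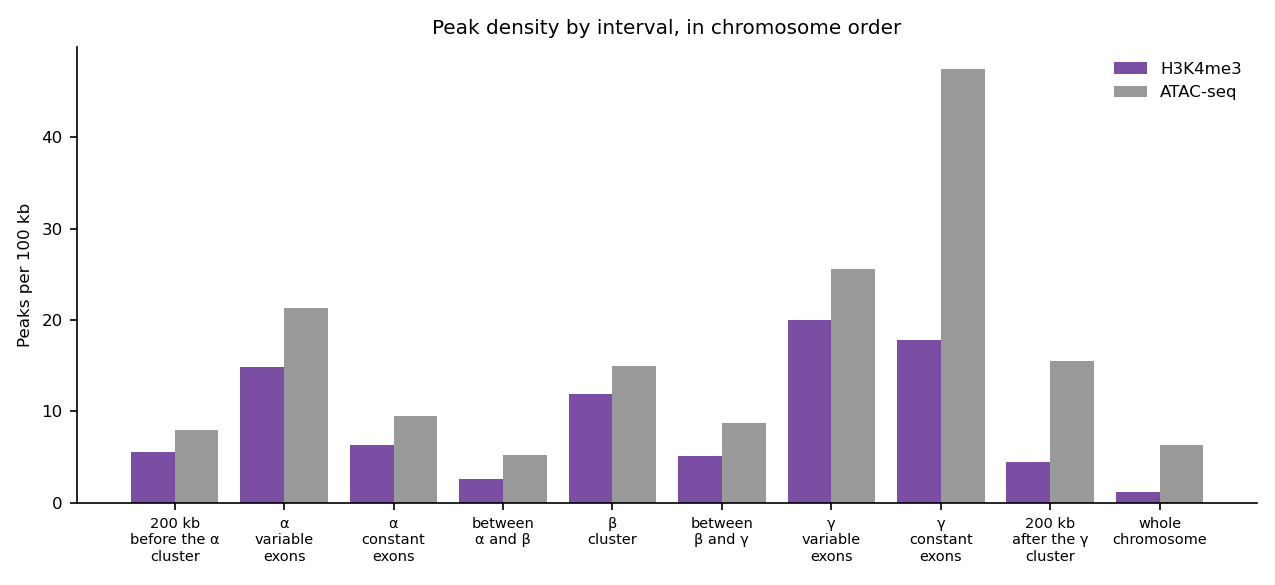
Bars show H3K4me3 (purple) and ATAC-seq (gray) peaks per 100 kb in 7 intervals of the locus, the 200 kb on either side, and the whole chromosome, without the short stretches between the last variable and the first constant exon (9.62 kb in α with no peak, 2.89 kb in γ with 2 H3K4me3 and 3 ATAC-seq peaks). For H3K4me3 the γ (20.0) and α (14.8) variable exons and the β cluster (11.9) stand above the 2 intervals between clusters (2.59 and 5.10) and the whole chromosome (1.12); for ATAC-seq the γ constant exons are highest of the intervals drawn, at 47.5.

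Other gene groups show how these promoters compare in the same list. All 18 other coding genes in the locus or within 200 kb of it had both peaks, with a median fold of 28.7. Of these, Gm42416, Gm37013 and Gm37388 are models that start inside the exons of Pcdha4, Pcdha6 and Pcdha7 and so share their peaks. Hars and Hars2, which encode histidyl-tRNA synthetases, share a peak with a fold of 55.5, and Diaph1, an actin regulator, had 43.6. Among the 12 non-clustered protocadherins, which are single genes outside the clusters, 11 had both peaks with a median fold of 22.4 (10.7 in Pcdh11x to 32.3 in Pcdh1). Pcdh12 had neither. Pcdh1 and Pcdh12 also lie on chromosome 18, beyond the 200 kb after the γ cluster, and the others lie on other chromosomes. Of 20 type I and II cadherins, 16 were marked by H3K4me3 and 17 were open by ATAC-seq, with a median fold of 21.5. Cdh1, the cadherin of epithelial and stem cells, had 43.5, and Cdh12, a neuronal cadherin, had 3.46.

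Other gene families that lie in clusters gave a wide range. Olfactory and vomeronasal receptors, which like the protocadherins are chosen cell by cell in neurons, had an H3K4me3 peak at 2 of 1464 starts (0.137%) and an ATAC-seq peak at 47 (3.21%). Hox genes, the body axis regulators, had an H3K4me3 peak at 37 of 39 starts with a median fold of 11.9, between those of the α and the γ cluster. Of 14 genes for known regulators of the clusters, 12 had both peaks, including Ctcf (45.3), the cohesin subunit Rad21 (44.9), the cohesin release factor Wapl (44.2) and Smchd1 (38.3). Setdb1, a histone H3 lysine 9 methyltransferase, had 8.04, and Dnmt1 and Trim28 had no H3K4me3 peak within 1 kb of the outermost annotated start, the start used for every gene.

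**Figure D5:**
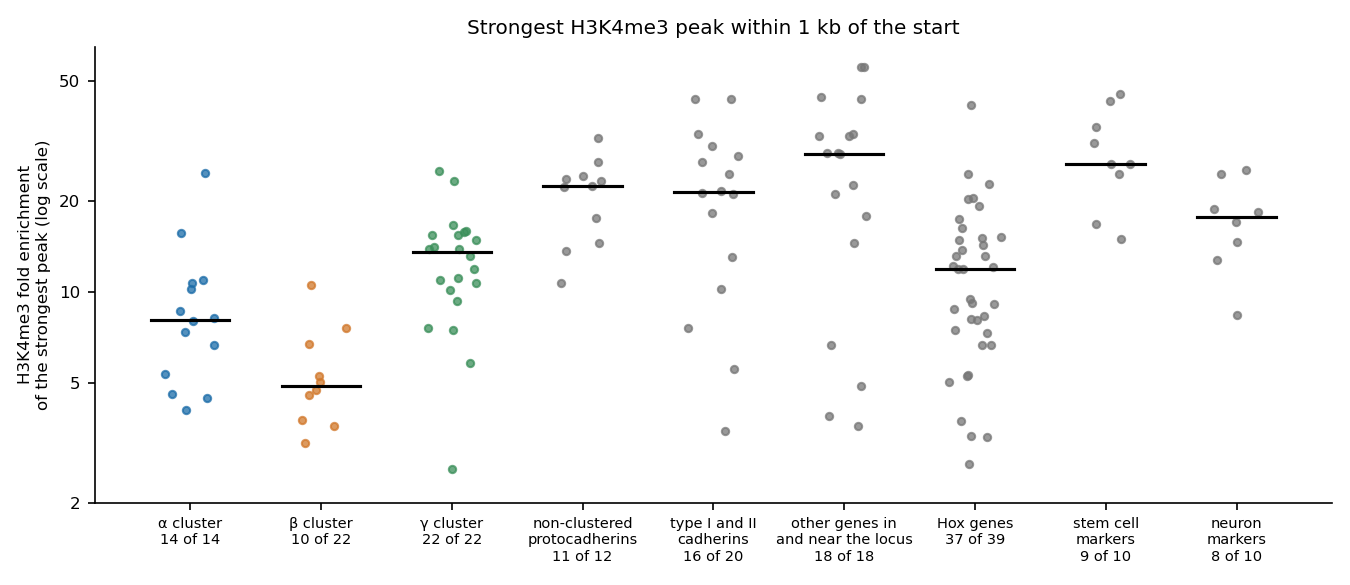
Points show the fold enrichment of the strongest H3K4me3 peak within 1 kb of the start (log axis) for each gene that has one, by cluster and by gene list, with black lines at the medians and the number of genes with a peak under each name. The α (8.09), β (4.87) and γ (13.5) medians stand below those of non-clustered protocadherins (22.4), cadherins (21.5) and other genes in and near the locus (28.7), and that of Hox genes (11.9) lies between α and γ.

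Marker genes of stem cells, of feeder fibroblasts and of neurons were each marked in part, at shares whose intervals all include the background of 65.2% for H3K4me3. For ATAC-seq the stem cell interval (72.2 to 100%) lay just above the background of 71.0%. The intervals of the fibroblast (31.3 to 83.2%) and neuron (49.0 to 94.3%) markers included it. Of 10 embryonic stem cell markers, 10 were open by ATAC-seq and 9 were marked by H3K4me3, among them Sox2 (42.9), Pou5f1 (35.1) and Nanog (14.9), and the exception was Esrrb. Of 10 fibroblast markers, 5 had an H3K4me3 peak, with folds of 25.9 in Pdgfra, 20.4 in Col1a2, 19.6 in Thy1, 13.9 in Col1a1 and 3.39 in Dcn, and Col3a1, Lum, Fap, Postn and S100a4 had none. Of 10 neuron markers, 8 had both peaks, with a median fold of 17.7, and Rbfox3 and Dcx had neither. The part of feeder or differentiated cells in the protocadherin peaks was not tested.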

How the data were processed

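H3K4me3 ChIP-seq and ATAC-seq of F123 cells were analysed as peak lists in mm10, 1 list for the 2 replicates of each assay. The H3K4me3 list came from the ENCODE pipeline for histone ChIP-seq, run by the authors, and its aligner and peak threshold are not given in the sources used here. Its deposited columns are positions, a fold enrichment (a ratio), −log10 p and q values, a display score (not used) and the summit. For ATAC-seq the authors aligned with Bowtie 1.1.2, filtered with SAMtools, moved read ends by 4 bp and called peaks with MACS2 2.1.1.20160309. The cutoff they give for these peaks is on the p value, not on the q value. They intersected the peaks with bedtools 2.27.1 and deposited positions only, for pooled peaks present in both replicates. Neither list has read counts, so the depth is unknown, and the fold enrichment depends on the authors' pooling and background.

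Gene starts came from GENCODE M21, 1 first exon per gene, and base composition, words and the CTCF consensus from the RefSeq genome of the same build (GRCm38). An overlap of 1 bp was enough for a peak to count. GENCODE gives 2 genes the symbol Pcdha11, and the one that starts at 37005203 was called Pcdha10 as in RefSeq. All 58 genes entered every count, with no filter. The genes to name were all members with an H3K4me3 peak within 1 kb of the start, the first and last of each cluster, the C-type genes and those with the widest ATAC-seq peak of a cluster, beside the lists given in the text; other members with a value of their own were named after their values were seen. Shares have 95% Wilson intervals, and no significance test was made. Overlap counts were tested on simulated peaks against bedtools 2.31.1. One gene of the regulator list is not reported here. The members and lists were chosen with earlier results of these data known. Alternatives were other windows, peak midpoints, other transcripts, a stricter list (−log10 q of at least 5, or the widest 50% of the ATAC-seq peaks), the background of chromosome 18 alone and 1 mismatch. Counting used pandas 2.3.3 with numpy 2.4.6 under Python 3.11.15, intervals scipy 1.17.1, and plots matplotlib 3.10.9.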

Additional observations from a re-analysis of the deposited data

How the results depend on the processing

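Of 77 values recomputed under other settings for 17 results, 59 stayed close to those given above. For a count, close means within a factor of 1.5, which is a wide margin. Members with an ATAC-seq peak went from 47 to 32 with the widest 50% of peaks and still count as close. Members with an H3K4me3 peak went from 46 to 38 by peak midpoint and to 56 within 2 kb. The shares over all protein-coding starts all count as moved, because the factor of 1.5 was used for counts and not for them. Some of these changes were small, as from 65.2% to 64.3% for H3K4me3 within 500 bp. The β counts moved with the window and with the peak list. With 2 kb on either side of the start, 20 of 22 β genes had a peak in the H3K4me3 list and 20 in the ATAC-seq list, and no member (0) had neither; the inner peaks near 2000 bp enter that window. With the peak on the start base, chosen after seeing the data, β genes with H3K4me3 were 5 and with ATAC-seq 7, α genes with ATAC-seq were 8, and 16 members had neither. With ATAC-seq peaks limited to the widest 50%, α genes with a peak were 8, β genes 3, and members with neither 12, since fewer peaks are left. The stricter list left 10 of 16 ATAC-seq peaks between the clusters. With 1 mismatch, 10 members held the CTCF consensus in place of 6. The share of all protein-coding starts with an H3K4me3 peak was 75.8% on chromosome 18 alone, 64.3% within 500 bp and 66.4% within 2 kb, and with an ATAC-seq peak 81.7%, 68.5% and 74.6%; on chromosome 18 both backgrounds were thus within the members' intervals. No paired analysis was possible because each list stands for both replicates, and for the same reason leaving out a replicate was not run. Weak peaks near the threshold of the caller cannot be told from absent ones without read counts.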

Other observations

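The 5 H3K4me3 peaks of the locus that lay away from every annotated gene start, first exon and constant exon, beside the one between the α and β clusters, had folds of 3.14 to 4.87. In the α variable exons a peak of 286 bp had a fold of 3.65, and in the γ variable exons peaks of 435 and 230 bp had folds of 3.14 and 3.26, with no ATAC-seq peak on any of the 3. Between Pcdhb1 and Pcdhb2 a peak of 618 bp had a fold of 4.87, and between the γ constant exons a peak of 411 bp had a fold of 3.68. The former overlapped 1 ATAC-seq peak and the latter 2.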
